A study of Mus musculus with 6 samples.

Results

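The genes described are 8 markers of Schwann cells and other glia, namely Sox10, Mbp, S100b, Ngfr, Pmp22, Erbb3, Gfra3 and Kcna1, chosen by name from 54115 genes with transcripts in RNA-sequencing of mouse satellite cells. All 8 passed the filter of at least 5 reads in at least 2 libraries, which left 17152 genes for testing. The data comprised 6 libraries of satellite cells (muscle stem cells) taken directly from muscle, 3 of Pax7WT and 3 of Pax7KR mice. Pax7KR mice have an acetylated lysine of PAX7 replaced by arginine on both alleles, made by CRISPR/Cas9 editing on the C57BL/6J background, and Pax7WT mice are their wild-type littermates. The study's mice were 6 to 8 weeks old, and the labels give no treatment for either genotype. The cells came from uninjured hindlimb muscle and were sorted as positive for CD34 and α7-INTEGRIN and negative for SCA-1, CD11b, CD31 and CD45. The negative gates are directed at leukocytes, endothelial cells and fibro-adipogenic cells. Each library was made from 15 ng of RNA, and the libraries are separate samples of a genotype, so p-values measure the spread between these samples.

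Schwann cells are the glia of peripheral nerves. They arise from the neural crest under the transcription factor SOX10, depend on axonal neuregulin sensed by ERBB3 with ERBB2, and either wrap large axons in myelin or hold bundles of small ones. Myelinating cells make the myelin proteins MBP and PMP22, non-myelinating and immature cells carry the neurotrophin receptor NGFR and the artemin co-receptor GFRA3, S100B is a calcium-binding protein of the whole lineage, and KCNA1 is a voltage-gated potassium channel best known from the axon beside the node. Several of these genes are not exclusive to glia: Pmp22 is transcribed in many tissues, Ngfr in muscle precursors and mesenchymal cells, and an upstream start of Mbp in neurons and blood cells.

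The libraries held 17822367 to 27908054 estimated reads. All 13 satellite cell markers listed were tested, and their summed level was 6283 to 7293 TPM (a level per transcript length, scaled to the same total in each library). This was the highest sum of the cell type marker lists in every library, although the lists differ in their number of genes. The 14 Schwann cell markers listed were all detected and summed to 268.7 to 344.6 TPM, but most of this came from Drp2 and Egr2, which were at 205.0 ± 21.6 and 33.7 ± 12.9 TPM (SD, n = 6). Without these 2 genes the sum was 43.6 to 75.7 TPM, the lowest in Pax7KR replicate 3 and the highest in Pax7WT replicate 3. Of 10 neuronal markers, 6 were at 0 in every library, among them the defining neurofilament genes Nefl, Nefm and Nefh, and the summed level was 2.84 to 5.84 TPM. Of 6 melanocyte markers, a neural crest lineage that also uses Sox10 and Erbb3, 4 were at 0 in every library, including Tyr and Dct. One library stood apart in another respect. Pax7KR replicate 2 had 52.0 CPM (counts scaled to library size) of the Y-linked gene Ddx3y against 117 to 135 in the other 5 libraries, with Xist at 0.88 CPM against 0.437 to 2.29, so the genotype difference of each of the 8 genes is also given without it.

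The 8 genes differed widely in abundance. Pmp22 was the most abundant at 256 ± 19.9 TPM (SD, n = 6), followed by Mbp at 37.5 ± 9.31 and Ngfr at 13.03 ± 2.91. S100b at 2.20 ± 0.809, Sox10 at 1.56 ± 0.554, Kcna1 at 1.54 ± 0.397 and Erbb3 at 1.16 ± 0.224 TPM formed a low tier, and Gfra3 was near the limit of detection at 0.187 ± 0.165. The ranges of neighbours in this order did not overlap between Pmp22 and Mbp, Mbp and Ngfr, Ngfr and S100b, or Erbb3 and Gfra3. Within the low tier neighbouring ranges overlapped, and Sox10 was above Kcna1 in 3 of 6 libraries. The satellite cell gene Pax7 was at 542 ± 35.4 TPM in the same libraries.

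Sox10 (ENSMUSG00000033006, GRCm38 chr15:79154908-79165240, minus strand) encodes the transcription factor that specifies the Schwann lineage. It had 40, 40 and 63 reads in Pax7WT replicates 1 to 3 and 51, 72 and 25 reads in Pax7KR replicates 1 to 3. Normalized to library size as CPM (counts per library total, with TMM scaling of the totals), these were 1.47, 2.26 and 3.07 in Pax7WT and 2.23, 3.02 and 1.18 in Pax7KR. Pax7WT replicate 3 and Pax7KR replicate 2 were high, Pax7KR replicate 3 was lowest, and the groups overlapped. The means were 2.27 ± 0.800 and 2.14 ± 0.920 CPM (SD, n = 3 each), a log2 fold change of Pax7KR against Pax7WT of -0.07 (SE 0.389; edgeR, adjusted p = 0.998). Without Pax7KR replicate 2 the log2 fold change was -0.40, and the sign turned to 0.217 without Pax7WT replicate 3 and to 0.22 without Pax7KR replicate 3. Of the 31-base words of the Sox10 transcripts 0.822% occur in other genes, all 25 of them in its paralog Sox9. The share was 1.293% for Ngfr, with 37 of 44 words in Mrgpre, and 0.628% for Mbp, with 48 of 54 in Dph5. It was 0.206% or less for the remaining members.

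Erbb3 (ENSMUSG00000018166, chr10:128567523-128589652, minus strand) encodes the neuregulin receptor of Schwann cells. Its 70 to 111 reads per library gave 3.82, 4.80 and 5.41 CPM in Pax7WT and 3.06, 4.52 and 3.59 CPM in Pax7KR. Pax7WT replicate 3 was again highest, Pax7KR replicate 1 was lowest, and the groups overlapped. The log2 fold change was -0.32 (SE 0.242; edgeR, adjusted p = 0.992, unadjusted p = 0.204), and it stayed negative, from -0.49 (without Pax7KR replicate 2) to -0.20, with each library left out in turn.

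Ngfr (ENSMUSG00000000120, chr11:95568818-95587735, minus strand) encodes the low-affinity neurotrophin receptor, a marker of immature and non-myelinating Schwann cells. It had 883, 545 and 506 reads in Pax7WT and 542, 375 and 497 reads in Pax7KR, which gave 32.5, 30.8 and 24.7 CPM in Pax7WT and 23.7, 15.7 and 23.5 CPM in Pax7KR. Every Pax7KR library was below every Pax7WT library, Ngfr being the only gene of the 8 without overlap, although Pax7KR replicate 1 and Pax7WT replicate 3 lay close together. The means were 29.3 ± 4.10 and 21.0 ± 4.56 CPM (SD, n = 3 each), a log2 fold change of -0.485 (SE 0.169). This did not pass the adjusted threshold of 0.1 (edgeR, unadjusted p = 0.0185, adjusted p = 0.992), and Ngfr ranked at place 290 by unadjusted p. Without Pax7KR replicate 2, the lowest library, the log2 fold change was -0.31, and leaving out each of the 6 libraries gave -0.59 to -0.31. With no filter on low counts, edgeR called Ngfr (adjusted p = 0.00461); no other alternative run made this call. In bulk RNA, fewer cells that express a gene and less RNA per cell cannot be told apart.

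The 250 bases before the RefSeq start of Ngfr (GRCm38.p6, chr11:95587699-95587948, minus strand) are shown because Ngfr is the member whose groups were separate, with each GGGCGG (the core of the GC box) or its reverse complement CCGCCC in capitals.
Ngfr: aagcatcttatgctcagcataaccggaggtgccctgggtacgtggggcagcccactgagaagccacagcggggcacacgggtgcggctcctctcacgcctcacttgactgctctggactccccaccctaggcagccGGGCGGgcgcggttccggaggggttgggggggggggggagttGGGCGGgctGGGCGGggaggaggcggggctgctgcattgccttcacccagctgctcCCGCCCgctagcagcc
This window is 70.4% G and C with 16 CpG dinucleotides, and GGGCGG stands 16, 63, 72 and 114 bases before the start. The GENCODE start of Ngfr, at 95587735, lies inside the window, so the GGGCGG at 16 bases falls within the GENCODE transcript. Of 32851 promoter windows of the same length, 32.7% hold GGGCGG on either strand. It holds neither ACAAAG nor ACAATG, letters that SOX proteins are known to bind, which 16.5% and 10.7% of the windows hold on either strand, nor TATAAA, which 12.4% hold. The same 3 words were missing from the RefSeq windows of Pmp22 and S100b.

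Gfra3 (ENSMUSG00000024366, chr18:34689898-34720387, minus strand) encodes the co-receptor through which artemin reaches RET. It had 0, 0 and 7 reads in Pax7WT and 8, 9 and 3 reads in Pax7KR. A count of 0 allows up to 3 reads, which is 0.110 CPM in Pax7WT replicate 1 and 0.169 CPM in Pax7WT replicate 2. The 3 Pax7KR libraries were at 0.350, 0.377 and 0.142 CPM and Pax7WT replicate 3 was at 0.341 CPM, so the groups overlapped. Summed over libraries, 20 reads in Pax7KR against 7 in Pax7WT gave a ratio of 2.75 (95% exact interval of counting error 1.12 to 7.71), while edgeR, which weighs the spread between libraries, gave an unadjusted p = 0.285 and an adjusted p = 0.998. The fitted log2 fold change of 1.35 (SE 1.21) depends on the prior count of a gene this low, and was 1.12 without Pax7KR replicate 2. Without Pax7WT replicate 3 every Pax7WT library is at 0 and no fold is given.

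Mbp (ENSMUSG00000041607, chr18:82475146-82585637, plus strand) encodes myelin basic protein, which compacts the myelin membrane. It had 1169, 773 and 1201 reads in Pax7WT and 829, 1108 and 703 reads in Pax7KR, giving 43.0, 43.6 and 58.5 CPM in Pax7WT and 36.3, 46.4 and 33.2 CPM in Pax7KR. Pax7WT replicate 3 was highest and Pax7KR replicate 3 lowest, and Pax7KR replicate 2 lay above 2 of the 3 Pax7WT libraries. The means were 48.4 ± 8.80 and 38.6 ± 6.90 CPM (SD, n = 3 each), and the log2 fold change was -0.32 (SE 0.165; edgeR, adjusted p = 0.992, unadjusted p = 0.0905). It was -0.48 without Pax7KR replicate 2 and -0.16 without Pax7WT replicate 3. With no filter on low counts it was -0.32 with an adjusted p = 0.0683, past the threshold.

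Pmp22 (ENSMUSG00000018217, chr11:63128982-63159547, plus strand) encodes a tetraspan membrane protein of compact myelin whose dosage is altered in inherited neuropathies. Its 4243 to 7835 reads per library, the most of the 8 genes, gave 287.9, 239.5 and 265.0 CPM in Pax7WT and 228.6, 224.2 and 246.2 CPM in Pax7KR. Pax7WT replicate 1 was highest and Pax7KR replicate 2 lowest, and only Pax7KR replicate 3 reached above a Pax7WT library. The means were 264 ± 24.2 and 233 ± 11.7 CPM (SD, n = 3 each), a log2 fold change of -0.18 (SE 0.073; edgeR, unadjusted p = 0.0274, adjusted p = 0.992). Leaving out each library gave -0.25 to -0.12 with unadjusted p from 0.00313 to 0.142. Without Pax7KR replicate 2 the log2 fold change was -0.16.

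S100b (ENSMUSG00000033208, chr10:76253853-76261159, plus strand) encodes the calcium-binding protein used to stain Schwann cells. It had 47, 27 and 44 reads in Pax7WT and 35, 69 and 22 reads in Pax7KR, giving 1.73, 1.52 and 2.14 CPM in Pax7WT and 1.53, 2.89 and 1.04 CPM in Pax7KR. The highest and the lowest library were both Pax7KR, so the spread within that genotype enclosed all of Pax7WT. The log2 fold change was 0.02 (SE 0.394; edgeR, adjusted p = 0.998), and it fell to -0.482 without Pax7KR replicate 2. The gene overlaps Dip2a on the opposite strand, and the library kit was directional.

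Kcna1 (ENSMUSG00000047976, chr6:126640397-126646384, minus strand) encodes a voltage-gated potassium channel subunit. It had 85, 65 and 93 reads in Pax7WT and 62, 110 and 53 reads in Pax7KR, giving 3.12, 3.67 and 4.53 CPM in Pax7WT and 2.71, 4.61 and 2.51 CPM in Pax7KR. Pax7KR replicate 2 was highest and Pax7KR replicate 3 lowest, and the groups overlapped. The log2 fold change was -0.20 (SE 0.29; edgeR, adjusted p = 0.998), with -0.53 without Pax7KR replicate 2 and -0.04 without Pax7KR replicate 3.

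**Figure D1:**
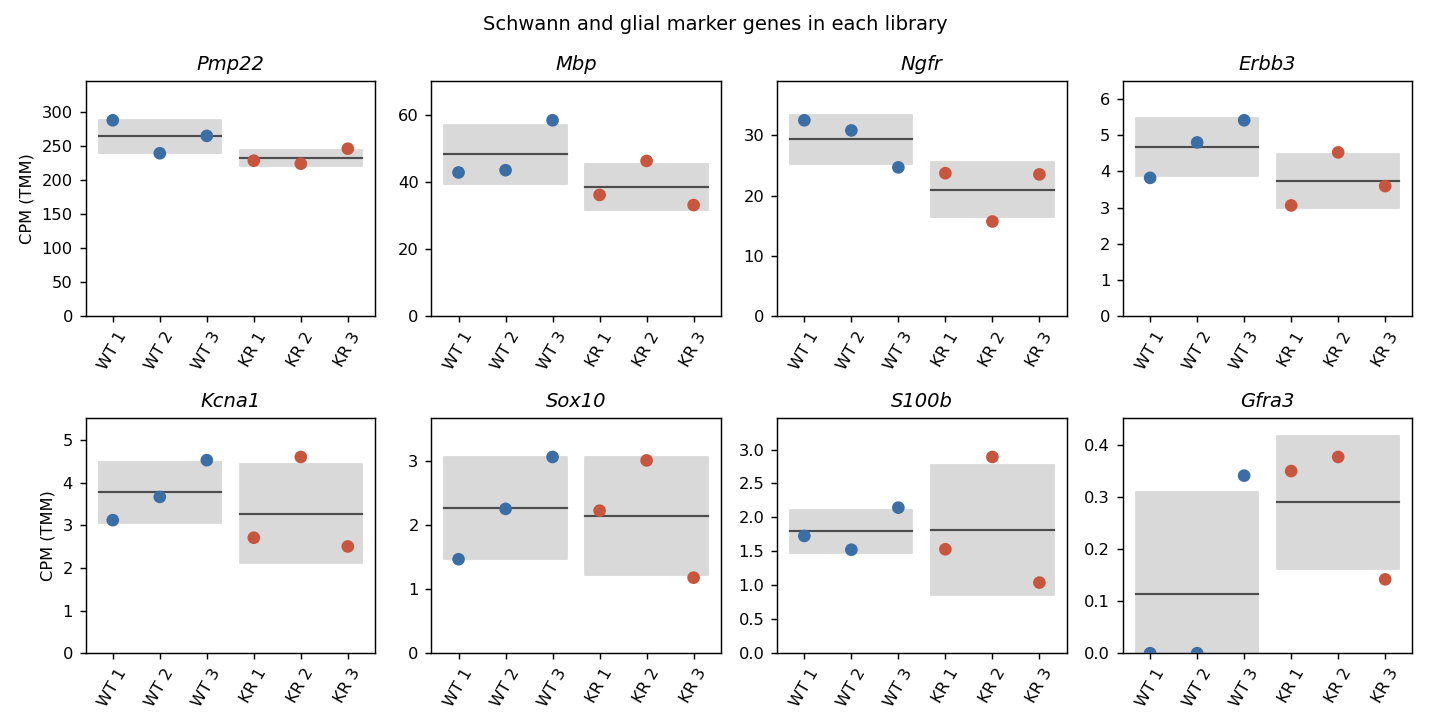
CPM with TMM scaling (vertical axis, linear from 0) of the 8 genes in each of the 6 libraries, Pax7WT in blue and Pax7KR in red, with the mean of each genotype as a line and 1 SD as a grey band (n = 3 each; a band is cut at 0 for Gfra3). Only the Ngfr points do not overlap between genotypes, with Pax7WT at 24.7 to 32.5 and Pax7KR at 15.7 to 23.7 CPM.

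Over the 8 genes, 0 passed an adjusted p under 0.1 in edgeR, where 0.0% of all 17152 genes tested passed. At an unadjusted p under 0.05 there were 2, Ngfr and Pmp22, both lower in Pax7KR, beside 803 of all genes (4.68%), of which 416 were lower in Pax7KR (2.43%). DESeq2 called 0 of the 8 and 30 of all genes (0.175%) at an adjusted p under 0.1. Groups that did not overlap in CPM were found for 1 of the 8 genes and for 1773 of all genes (10.3%). The log2 fold change was negative for 6 and positive for 2 genes with a median of -0.19, against 8753 negative, 8399 positive and a median of -0.004 over all genes. The 14 Schwann cell markers, Sox10 and S100b among them, had 5 positive and 9 negative log2 fold changes with a median of -0.056. Several marker lists of other cell types were mostly of the same sign, whereas others were mixed. Smooth muscle and pericyte markers were negative for 10 of 10 (median -0.14) and myofibre markers for 8 of 10 (median -0.132). Endothelial markers were positive for 10 of 11 (median 0.37), erythroid markers for 6 of 6 (median 0.688) and perineurial markers for 4 of 4 tested (median 0.46). Satellite cell markers were mixed, with 6 positive and 7 negative (median -0.007). So were fibro-adipogenic markers with 3 positive and 5 negative (median -0.048). Immune markers had 6 positive and 4 negative (median 0.032), and tenocyte markers 2 positive and 3 negative (median -0.207). In these lists 0 genes were past the adjusted threshold. The part of other cell types in the values of the 8 genes was not tested. The common coefficient of biological variation between libraries was 13.75%.

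**Figure D2:**
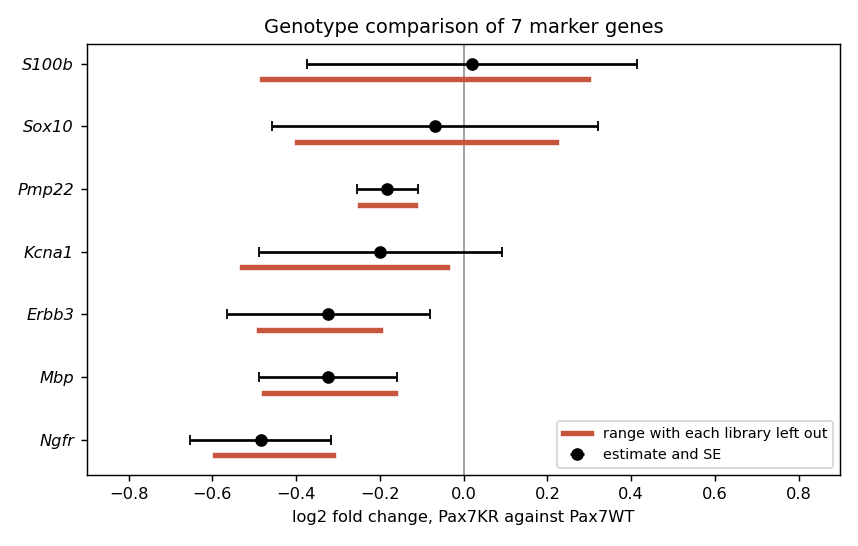
Log2 fold change of Pax7KR against Pax7WT (horizontal axis) for 7 of the genes, with points and black bars for the estimate and its SE and red bars for the range when each of the 6 libraries is left out in turn. Gfra3, with 0 to 9 reads per library, is left out. The ranges of Sox10 and S100b cross 0, and those of Pmp22, Kcna1, Erbb3, Mbp and Ngfr lie below it.

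The libraries within a genotype differed more than the genotypes did for several of these genes, and they did so in a shared pattern. Pax7KR replicate 2 had 2.55 times the Sox10 level of Pax7KR replicate 3 (95% exact interval of counting error 1.6 to 4.2). The ratio was 2.78 for S100b (1.7 to 4.72), 1.84 for Kcna1 (1.31 to 2.6), 1.4 for Mbp (1.27 to 1.54) and 1.26 for Erbb3 (0.93 to 1.71). Ngfr and Pmp22 went the other way, with ratios of 0.668 (0.583 to 0.766) and 0.911 (0.876 to 0.946). Between Pax7WT replicates 3 and 1 the ratios lay on the same sides of 1. Sox10 had a ratio of 2.09 (1.38 to 3.19), Kcna1 of 1.45 (1.07 to 1.97), Erbb3 of 1.42 (1.07 to 1.87) and Mbp of 1.36 (1.26 to 1.48), S100b had 1.24 with an interval that includes 1 (0.804 to 1.91), whereas Ngfr was at 0.76 (0.68 to 0.849) and Pmp22 at 0.92 (0.889 to 0.953). These intervals cover counting error only, and the library pairs were chosen after their values were seen. The correlations that follow are a description over 6 libraries that share the sorting gates but differ in depth. Pearson's r of log2(CPM + 1) among Sox10, Mbp, S100b, Erbb3 and Kcna1 was 0.531 to 0.9. That of Ngfr with these 5 was -0.563 to -0.038, that of Pmp22 with these 5 was -0.372 to 0.297, and that of Ngfr with Pmp22 was 0.677. By ranks (Spearman's rho) the values were 0.429 to 0.943 among the 5 genes and -0.143 to 0.257 for Ngfr with them. By rank, Ngfr therefore showed no clear opposite order. Without the 2 libraries farthest from the median of the first gene of a pair, r among the 5 genes was 0.631 to 0.896, but that of Ngfr with the 5 was -0.612 to 0.521 and that of Ngfr with Pmp22 was -0.095. That of Pmp22 with the 5 was -0.59 to 0.578. With Ngfr, r was then -0.612 for Sox10, -0.269 for S100b and -0.231 for Mbp, against 0.521 for Erbb3 and 0.428 for Kcna1. The correlations of Ngfr and Pmp22 were therefore unstable. The libraries left out depend on the first gene of a pair, so these values cannot trace the correlations to particular libraries.

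**Figure D3:**
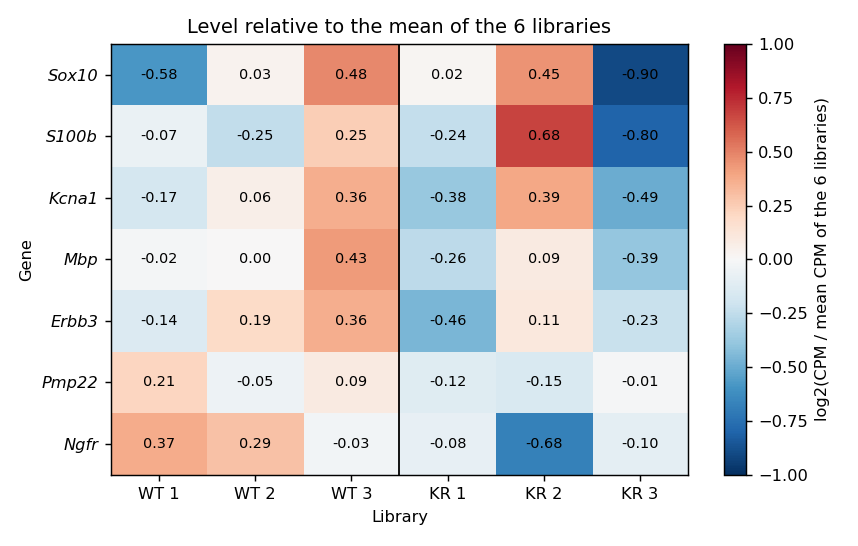
Level of 7 genes in each library as log2 of CPM over the mean CPM of the 6 libraries, by colour and printed value (rows are genes, columns are libraries, and the line separates Pax7WT from Pax7KR). Sox10, S100b, Kcna1, Mbp and Erbb3 are above their mean in Pax7WT replicate 3 and Pax7KR replicate 2 and below it in Pax7KR replicate 3, while Ngfr and Pmp22 are highest in Pax7WT replicate 1 and lowest in Pax7KR replicate 2.

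Markers of other cell types also differed between these libraries. Of the 14 Schwann cell markers, 11 were higher in Pax7KR replicate 2 than in replicate 3, beside 50.2% of all genes, and 12 were higher in Pax7WT replicate 3 than in replicate 1, beside 49.7%. Sox10 and S100b belong to these 14 markers and to both counts. The library pairs were chosen after the values of these genes were seen, so the counts are partly set by that choice. All 11 endothelial, all 8 fibro-adipogenic and all 10 smooth muscle and pericyte markers were also higher in Pax7KR replicate 2 than in replicate 3, and in Pax7WT replicate 3 over replicate 1 these counts were 9, 7 and 8. Erythroid markers did not follow, with 0 of 6 higher in the first pair and 6 of 6 in the second. The summed endothelial level was 143.6 TPM in Pax7KR replicate 3 and 208.5 TPM in Pax7KR replicate 2, against 127.8 to 168.4 TPM in Pax7WT, and none of its 11 markers was at 0 in every library. The summed erythroid level was 719.7 to 1387 TPM in Pax7WT and 1264 to 2055 TPM in Pax7KR, the highest in Pax7KR replicate 3. Of the 13 satellite cell markers, 5 were higher in Pax7KR replicate 2 than in replicate 3, and 6 in Pax7WT replicate 3 than in replicate 1. In the same 2 pairs, 7 and 9 of 10 myofibre, 7 and 6 of 10 immune and 2 and 4 of 5 tenocyte markers were higher.

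Transcripts of Mbp and Pmp22 from different starts behaved differently between libraries. Mbp reads were divided mainly between the downstream start, with reads on 7 of its 11 transcripts, and the upstream start, with reads on 3 of 4. The downstream start is known for the classic myelin proteins and the upstream start for transcripts that encode the Golli proteins found also outside myelin. Reads of the downstream start were at 35.5, 36.5 and 51.6 CPM in Pax7WT and 30.05, 41.5 and 26.2 CPM in Pax7KR, high in the same libraries as Sox10. Reads of the upstream start were at 7.45, 7.11 and 6.895 CPM in Pax7WT and 6.21, 4.90 and 6.97 CPM in Pax7KR, lowest in Pax7KR replicate 2, where the downstream reads were high. The downstream share of Mbp reads was 84.9% ± 2.95 in Pax7WT and 83.7% ± 5.33 in Pax7KR (SD, n = 3 each; two-sided exact permutation test, p = 0.9, where 0.1 is the smallest that 3 against 3 can give). Its range was 78.9% to 89.45%, both ends being Pax7KR libraries.

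Pmp22 transcripts start at several places, of which the upstream is known as the start used in myelinating Schwann cells and the next as the more widely used one. The middle start, with 1 transcript, took 82.6%, 81.7% and 85.1% of Pmp22 reads in Pax7WT and 84.2%, 85.5% and 87.0% in Pax7KR. The upstream start, also with 1 transcript, took 16.12%, 16.53% and 13.95% in Pax7WT and 14.07%, 13.47% and 11.4% in Pax7KR, so the shares overlapped narrowly (exact permutation test, p = 0.2). As shares of TPM they were 13.53% to 15.8% in Pax7WT and 10.87% to 13.4% in Pax7KR, which did not overlap (exact permutation test, p = 0.1). As levels, upstream reads were at 46.4, 39.6 and 37.0 CPM in Pax7WT and 32.2, 30.2 and 28.1 CPM in Pax7KR, with every Pax7KR library below every Pax7WT library. The means were 41.0 ± 4.87 and 30.1 ± 2.04 CPM (SD, n = 3 each; two-sided exact permutation test, p = 0.1, the smallest the design allows, and not adjusted over the start groups examined). Without Pax7KR replicate 2 the Pax7KR mean was also 30.1 CPM. The means of the middle start were 220 ± 21.7 and 199 ± 12.8 CPM (exact permutation test, p = 0.2). Unlike Sox10, upstream Pmp22 reads were not raised in Pax7WT replicate 3 or Pax7KR replicate 2. Splitting reads among transcripts that share most of their exons rests on the estimate made by salmon.

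The 250 bases before the RefSeq starts of these Pmp22 transcripts (GRCm38.p6, plus strand) are chr11:63128732-63128981 for the upstream and chr11:63131207-63131456 for the middle start, the latter ending 55 bases before the GENCODE start. They are shown to compare the start whose levels were separate between genotypes with the one that carries most reads, with GGGCGG or CCGCCC in capitals as before.
Pmp22 upstream: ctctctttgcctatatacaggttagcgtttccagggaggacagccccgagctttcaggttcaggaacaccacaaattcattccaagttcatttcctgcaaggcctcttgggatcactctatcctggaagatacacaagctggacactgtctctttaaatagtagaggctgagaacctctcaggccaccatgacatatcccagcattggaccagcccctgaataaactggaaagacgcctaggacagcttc
Pmp22 middle: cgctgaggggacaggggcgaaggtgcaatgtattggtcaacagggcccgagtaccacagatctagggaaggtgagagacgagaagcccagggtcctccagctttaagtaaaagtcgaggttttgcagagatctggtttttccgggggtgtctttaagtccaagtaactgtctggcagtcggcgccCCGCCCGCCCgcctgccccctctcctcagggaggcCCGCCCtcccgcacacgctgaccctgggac
The upstream window has 48.8% G and C with 3 CpG dinucleotides and no GGGCGG, while the middle window has 61.2% with 14 CpG dinucleotides and GGGCGG at 30, 61 and 65 bases before the start, of which the last 2 overlap.

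**Figure D4:**
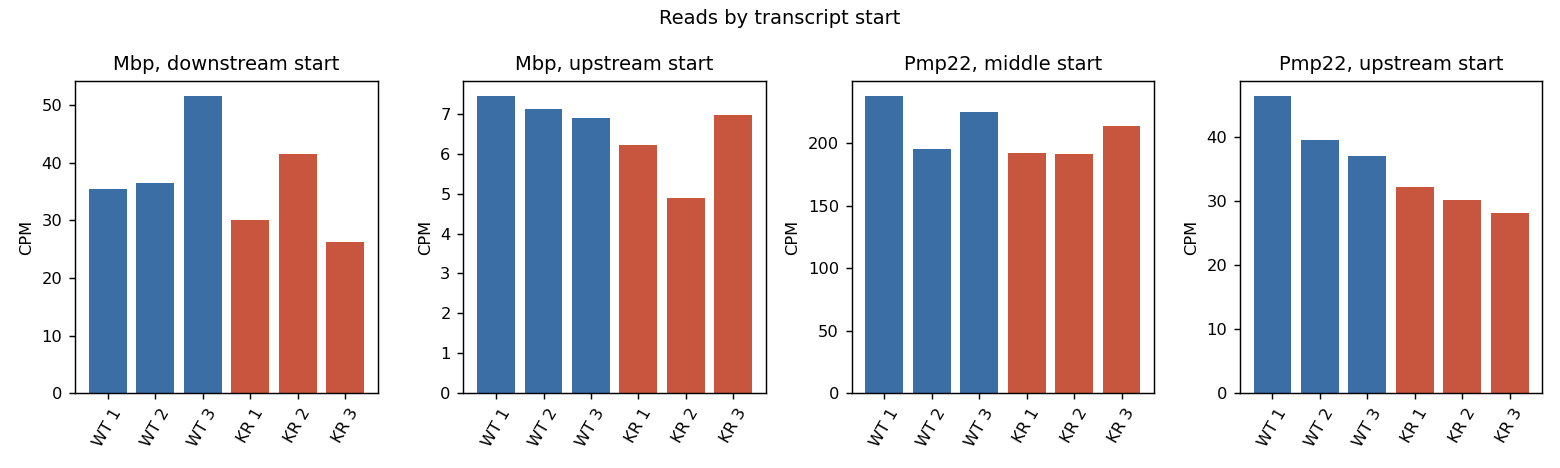
CPM (vertical axes, from 0) of reads assigned to the downstream and upstream starts of Mbp and to the middle and upstream starts of Pmp22, 1 bar per library, Pax7WT in blue and Pax7KR in red. Downstream Mbp bars are tallest in Pax7WT replicate 3 (51.6), upstream Mbp is lowest in Pax7KR replicate 2 (4.90), and the upstream Pmp22 bars of Pax7KR (28.1 to 32.2) are all below those of Pax7WT (37.0 to 46.4).

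The genes around these members were read from lists by role, and no list had a gene past the adjusted threshold. Of 10 Schwann lineage transcription factors 8 were tested, 3 with a positive and 5 with a negative log2 fold change and a median of -0.04. Egr2, the activator of myelin genes and also an immediate early gene, was at 33.7 ± 12.9 TPM, Sox8 at 31.9 ± 7.62 and Sox9 at 9.37 ± 2.45 TPM (SD, n = 6), so all exceeded Sox10. Foxd3, a factor of early glial precursors, had the smallest unadjusted p of the list (edgeR, 0.129). It had 26 reads in Pax7WT against 10 in Pax7KR, a ratio of 0.371 (95% exact interval of counting error 0.16 to 0.795). Of the 26 reads, 17 were in Pax7WT replicate 3. Foxd3 passed the filter only through Pax7WT replicates 2 and 3, in the genotype where it was high. Its p and ratio are therefore partly set by the filter and are not evidence of a difference. All 8 tested factors, Sox10 among them, were higher in Pax7KR replicate 2 than in replicate 3, but only 3 of 8 were higher in Pax7WT replicate 3 than in replicate 1.

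Of 22 genes of myelin proteins and myelin lipid enzymes 19 were tested, 4 with a positive and 15 with a negative log2 fold change and a median of -0.19. Mobp, Mog and Omg, which belong to central myelin, were at 0 in every library. Mal, a proteolipid of myelin rafts, had the smallest unadjusted p, with 15.0 ± 1.17 CPM in Pax7WT and 11.2 ± 1.13 CPM in Pax7KR (SD, n = 3 each), a log2 fold change of -0.42 (SE 0.126; edgeR, unadjusted p = 0.00523, adjusted p = 0.992). Its groups did not overlap, and without Pax7KR replicate 2 the log2 fold change was -0.355. Drp2, a dystroglycan partner of the Schwann cell membrane that was at 205 TPM here, had a log2 fold change of -0.04 (SE 0.098; edgeR, adjusted p = 0.998).

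Of 18 markers of non-myelinating Schwann cells and other glia 13 were tested, with 4 positive and 9 negative log2 fold changes and a median of -0.10. Fabp7, Aqp4, Olig1 and Olig2 were at 0 in every library. The most abundant, the adhesion molecules Ncam1 at 152 ± 3.61 and Cadm4 at 32.0 ± 2.44 TPM and Art3 at 29.4 ± 4.79 TPM (SD, n = 6), differed by log2 fold changes of -0.10, -0.05 and -0.14, and Ncam1 and Cadm4 are also known from muscle or other tissues.

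Receptor lists showed which partners of ERBB3, NGFR and GFRA3 were present. In the neuregulin and ErbB list 8 of 13 genes were tested, with 2 positive and 6 negative log2 fold changes. Erbb2, the kinase partner of ERBB3, was at 15.7 ± 1.57 TPM (SD, n = 6), above Erbb3, and Egfr and the ERBB2-binding scaffold Erbin were at 92.6 ± 13.4 and 68.1 ± 4.89 TPM. The ligand Nrg1 had 0 to 8 reads per library and was not tested. Erbin had the smallest unadjusted p of the list (0.121).

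In the neurotrophin list 12 of 16 genes were tested, 7 with a positive and 5 with a negative log2 fold change. The NGFR-binding protein gene Maged1 at 240 ± 11.7 TPM, the ligand gene Ntf3 at 47.5 ± 5.94 TPM and the sorting receptor gene Sort1 at 22.5 ± 0.944 TPM (SD, n = 6) led it. The kinase receptor genes Ntrk2 and Ntrk3 had 17 to 94 and 4 to 14 reads per library. Ngfr had the smallest unadjusted p of the list.

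In the GDNF family list 7 of 10 genes were tested, 3 with a positive and 4 with a negative log2 fold change. The co-receptor gene Gfra1 at 51.1 ± 14.9 TPM, the kinase gene Ret at 27.6 ± 3.63 TPM and Gfra4 at 13.2 ± 2.62 TPM (SD, n = 6) all lay far above Gfra3. Artn, which encodes the ligand of GFRA3, had 1 to 4 reads per library and was not tested. Gdnf had the smallest unadjusted p of the list (0.0661), at 16.1 ± 2.31 CPM in Pax7WT and 12.4 ± 3.25 CPM in Pax7KR (SD, n = 3 each; edgeR, adjusted p = 0.992). Its log2 fold change was -0.38, and -0.597 without Pax7KR replicate 2 (edgeR, unadjusted p = 0.00434, adjusted p = 1.0).

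Of 21 genes of Kv1 channels and their partners beside the node 15 were tested, with 5 positive and 10 negative log2 fold changes and a median of -0.12. The scaffold gene Dlg4 at 32.5 ± 4.13 TPM, Adam22 at 10.1 ± 2.04 TPM and its ligand gene Lgi4, a Schwann cell product, at 6.52 ± 1.14 TPM (SD, n = 6) led the list. The channel gene Kcna2 was at 1.98 ± 0.227 TPM, near Kcna1, and the axonal partner gene Cntn2 was at 0 in every library. Kcna3 had the smallest unadjusted p (0.0394), from 1 read in each Pax7WT library and 7, 9 and 3 reads in Pax7KR, a ratio of 6.11 (95% exact interval of counting error 1.8 to 32.2; edgeR, adjusted p = 0.992). Kcna3 passed the filter only through Pax7KR replicates 1 and 2, in the genotype where it was high. Its p and ratio are therefore partly set by the filter and are not evidence of a difference. Without Pax7KR replicate 2 it did not pass the filter.

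For each of the 7 members with a mean of at least 1 CPM, the 2 genes with the most similar levels over the 6 libraries were found among 13283 genes, as a description over few points. Sox10 was nearest to Ovca2 (Pearson's r = 0.997) and to Pou3f1 (0.99), a transcription factor of promyelinating Schwann cells. Kcna1 was nearest to Bcl10 (0.988) and to Prx (0.986), which encodes the myelin protein periaxin. The nearest genes of Mbp were Jmjd6 (0.996) and Fam234a (0.993), those of S100b Tspan13 (0.994) and Fam3a (0.991), and those of Erbb3 D130020L05Rik (0.989) and Ipo11 (0.988). Ngfr was nearest to Rnaset2b (0.984) and Tmem246 (0.982), and Pmp22 to Odc1 (0.994) and Vma21 (0.991).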

How the data were processed

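The authors quantified paired 150-base reads with Salmon (version 1.3.0) against GENCODE transcripts of GRCm38, using the genome sequence as decoy. The authors deposited these estimated counts for each of the 6 libraries without normalization. The authors also deposited TPM values and effective lengths, used here for levels between genes and for a length offset. Their table of fold changes and p-values between genotypes, made with DESeq2 (version 1.28.1), was not used.

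Of 140992 transcripts, 1201 could not be matched to an earlier GENCODE release and were left out, with 0.592% to 0.634% of the reads. Estimated counts were summed per gene and rounded. The filter kept genes with at least 5 reads in at least 2 libraries, and the test was edgeR (version 4.0.16; TMM, quasi-likelihood test, robust shrinkage), with Benjamini-Hochberg adjustment over 17152 genes and a threshold of 0.1. Standard errors follow from the fold change and F statistic. Start shares were compared by two-sided exact permutation tests in scipy (version 1.17.1). The test was checked on simulated data. Intervals and floors cover counting error only. Alternatives were DESeq2 (version 1.42.0), RLE scaling, other filters, no robust shrinkage, a length offset, a replicate block, a threshold of 0.05 and leaving out each library. Same-numbered libraries did not deviate together (correlations 0.002, 0.045 and -0.056), and no 2 libraries agreed within sampling noise (chi-square per gene 9.73 or more).

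Genes named from lists are the 3 with the highest TPM and the 1 with the smallest p. S100a6, Emp1, and further ligands, partners and genes at 0 were named after their values were seen, as were the library pairs and the levels by start. The members and lists were chosen with earlier results of these data known. Promoter sequences come from RefSeq (GRCm38.p6), which matched 3 of the members.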

Additional observations from a re-analysis of the deposited data

How the results depend on the processing

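Against 0 genes called, DESeq2 called 30, edgeR without a filter 157 and edgeR with a replicate block 13, and leaving out 1 library gave 1 to 32, the most without Pax7KR replicate 3. Of the 8 members, 2 were called without a filter, Ngfr and Mbp, and 0 under every other alternative, and the cause was not tested. The replicate numbers pair nothing in the labels, and the block changed no other call of a member. With 1 library left out, the log2 fold change of Sox10 ran from -0.398 to 0.22 and that of S100b from -0.482 to 0.297. That of Sox10 became 0.217 without Pax7WT replicate 3 and 0.22 without Pax7KR replicate 3, and that of S100b became -0.083 with the replicate block, -0.01 and -0.08 without Pax7WT replicates 1 and 2 and -0.482 without Pax7KR replicate 2. The other 6 members kept their sign under all alternatives that gave a value. With 1 library left out, the Mbp downstream share differed by -3.98 to 1.3 percentage points, with 0.555 without Pax7WT replicate 3 and 1.3 without Pax7KR replicate 3, and the place of Sox10 and Kcna1 in the order of levels was 5 to 6. Members with an unadjusted p under 0.05 numbered 0 without Pax7WT replicate 1, and 1 with the length offset, without Pax7WT replicate 2 or without Pax7KR replicate 1, and 3 (Mbp added) with DESeq2 or no filter, against 2. Without Pax7KR replicate 2 the 2 were Ngfr and Mbp (edgeR, unadjusted p = 0.0308 and 0.00613) in place of Ngfr and Pmp22. Without Pax7WT replicate 3 they were Ngfr and Gfra3, the latter with 0 reads in the Pax7WT libraries that remained. Over 9 lists, 14 of 117 medians moved, within -0.293 to 0.177. Gfra3 failed the filter of 10 reads in every library and gave no value there. At this depth Gfra3, with 0 to 9 reads per library, was near the limit that a count of 0 allows.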

Other observations

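The relatives of 2 members were measured in the same libraries. In the PMP22 and EMP family, 4 of 5 genes were tested, with 2 positive and 2 negative log2 fold changes. Emp3 was at 93.9 ± 9.12 TPM, Emp2 at 65.8 ± 5.09 TPM and Emp1 at 19.0 ± 3.47 TPM (SD, n = 6), below Pmp22, and Lim2, a lens gene, was at 0 in every library. Their log2 fold changes were -0.065 for Emp3, 0.02 for Emp2 and 0.09 for Emp1, with adjusted p of 0.998 in edgeR.

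In the S100 family, 11 of 16 genes were tested, with 4 positive and 7 negative log2 fold changes and a median of -0.06. S100a10 at 207.5 ± 11.2 TPM, S100a11 at 170 ± 15.96 TPM and S100a16 at 140.2 ± 8.63 TPM (SD, n = 6) were far above S100b at 2.20 TPM. S100a11 had 38.9 ± 3.46 CPM in Pax7WT and 33.7 ± 2.21 CPM in Pax7KR (SD, n = 3 each; edgeR, unadjusted p = 0.0397, adjusted p = 0.992), and S100a6 had 29.2 ± 1.87 and 34.7 ± 5.21 CPM (edgeR, unadjusted p = 0.044, adjusted p = 0.992). The genotypes overlapped for both genes.

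Over the other lists, immune markers summed to 16.8 to 23.0 TPM with Cd3e at 0 in every library, perineurial markers to 15.0 to 23.1 TPM, tenocyte markers to 30.5 to 61.8 TPM, fibro-adipogenic markers to 617 to 743 TPM, smooth muscle and pericyte markers to 742 to 909 TPM and myofibre markers to 109 to 139 TPM.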
